A study of Rattus norvegicus with 4 samples.

Results

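The apolipoprotein genes described here are the 10 listed as Apoa1, Apoa2, Apoa4, Apoa5, Apob, Apoc1, Apoc2, Apoc3, Apoe and Apoh, out of 12461 genes with a named probe on the array. They were found by symbol in the platform's probe annotation, which gave 12 probes, and a 13th probe, of Apob, was added through the RefSeq accession in the scanner reports. The samples are livers of 4 male rats of the Otsuka Long-Evans Tokushima Fatty (OLETF) strain, in which obesity and diabetes develop without a special diet. RNA of each liver was put on its own CodeLink array, read in 1 colour, with no pooling. Both groups were OLETF rats on standard chow, killed after a 16 h fast when 55 weeks old. The 2 thiamine rats had drunk water with 0.2% thiamine, a B vitamin, at 2 g per L, which they received for 51 weeks starting when 4 weeks old, and the 2 untreated rats had drunk water with 0% thiamine over the same time. No lean control strain was analysed here, and both groups share the OLETF background. The study kept 8 rats per group, 2 to a cage, and the cage of each rat was not used here. The comparison asks whether long thiamine intake goes with a different level of these transcripts in the liver of this model. With 2 animals per group, the number of arrays limits the precision of every difference given.

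Apolipoproteins are the protein parts of the particles that carry fat and cholesterol in blood. Apob is the structural protein on which the liver builds very low density lipoprotein, and Apoa1 and Apoa2 are the main proteins of high density lipoprotein. The smaller, exchangeable ones tune what happens to the particles in plasma: Apoc2 is the cofactor that lipoprotein lipase needs, Apoc3 and Apoc1 slow lipolysis and uptake, Apoa5 promotes triglyceride clearance, and Apoe is a ligand by which liver receptors take up particle remnants. Apoh is a plasma glycoprotein that binds phospholipids, and Apoa4 is made by the intestine and, in the rat, also by the liver.

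Most of these transcripts lay beyond the range of the scanner. For 5 of the 10 genes (Apoa2, Apoc1, Apoc3, Apoe and, by a probe it shares in the annotation with another gene, Apoa4) every probe was flagged as saturated on all 4 arrays, for Apoc2 the probe was saturated on 3 of 4 arrays, and for 4 genes (Apoa1, Apoa5, Apob and Apoh) a difference between the groups could be measured. A saturated spot gives only a lower bound on the signal, so its value has no order among the rats and no fold change is given for it. Of 33849 gene probes, 26 were saturated on all 4 arrays (0.0768%), and 6 of these 26, or 23.1%, were probes of the listed apolipoproteins. The others with a gene name included probes of secreted plasma proteins and abundant liver enzymes, among them Ahsg, Alb, Ambp, Crp, Cyp2c6v1, Cyp2e1, Gc, Hp, Hpx, Ldha, Mug1l1, Selenop, Serpina1, Tf and Ttr.

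**Figure D1:**
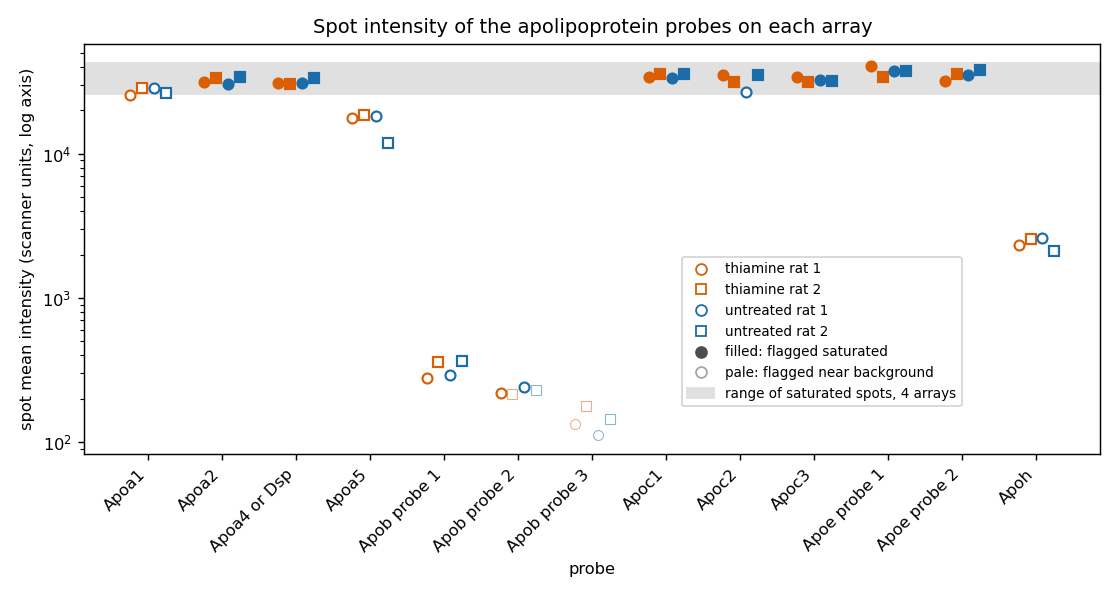
Spot mean intensity (scanner units, log axis) of the 13 apolipoprotein probes on the arrays of thiamine rats 1 and 2 (orange) and untreated rats 1 and 2 (blue). Filled points were flagged saturated, pale points near background, and the grey band spans the saturated gene spots of the 4 arrays, from 25842 to 42926. The probes of Apoa2, Apoa4 or Dsp, Apoc1, Apoc3 and Apoe are filled throughout, Apoc2 has 1 open point, and Apoa1 lies open at the lower edge of the band.

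Among the proteins of high density lipoprotein, Apoa2 had intensities, after subtraction of the local background, of 31171 and 33172 in thiamine rats 1 and 2 and of 30315 and 33714 in untreated rats 1 and 2. All 4 spots were saturated. The probe for Apoa4 stands in the platform annotation for both Apoa4 and Dsp, a desmosome gene, although the accession in the scanner reports is that of Apoa4. Its intensities were 30695 and 30530 in the thiamine rats and 31043 and 33469 in the untreated rats, saturated throughout, and they are not assigned to Apoa4 alone.

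Among the modulators of lipolysis, Apoc1 was at 34072 and 35653 in the thiamine rats and at 33181 and 35474 in the untreated rats. Apoc3 was at 33970 and 31286 in the thiamine rats and at 32208 and 31990 in the untreated rats. All 8 of these spots were saturated. Apoc2 was at 35181 and 31234 in the thiamine rats and at 26656 and 34850 in the untreated rats. The spot of untreated rat 1 was the 1 measured value of Apoc2, and it was the lowest of the 4. Since both thiamine spots and that of untreated rat 2 were saturated, the order of the groups for this lipase cofactor is unknown.

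Apoe, the receptor ligand, had a pair of probes, and their saturated readings ordered the rats differently. The first read 40550 and 34103 in the thiamine rats and 37418 and 37300 in the untreated rats. The second read 31887 and 35708 in the thiamine rats and 35056 and 38040 in the untreated rats. Thiamine rat 1 was thus the highest of the 4 on the first probe and the lowest on the second. The spot of untreated rat 1 on the first probe and of thiamine rat 2 on the second were also flagged as contaminated.

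Probes at the ceiling also varied little between arrays. The ratio of the highest to the lowest array, on background-subtracted intensity, had a median of 1.12 over the 26 probes saturated on all 4 arrays. It was 1.28 over 152 unsaturated probes with a spot mean of 10000 or more on all 4 arrays, and 1.47 over all 18664 kept probes. The apolipoprotein probes saturated on all arrays lay between 1.07 for Apoc1 and 1.19 for both Apoe probes. Among the kept apolipoprotein probes unsaturated on all arrays, the ratio was 1.11 for Apoa1, 1.23 for Apoh, 1.56 for Apoa5 and 1.62 for Apob. That of Apoa1 thus lay within the range of the saturated probes.

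**Figure D2:**
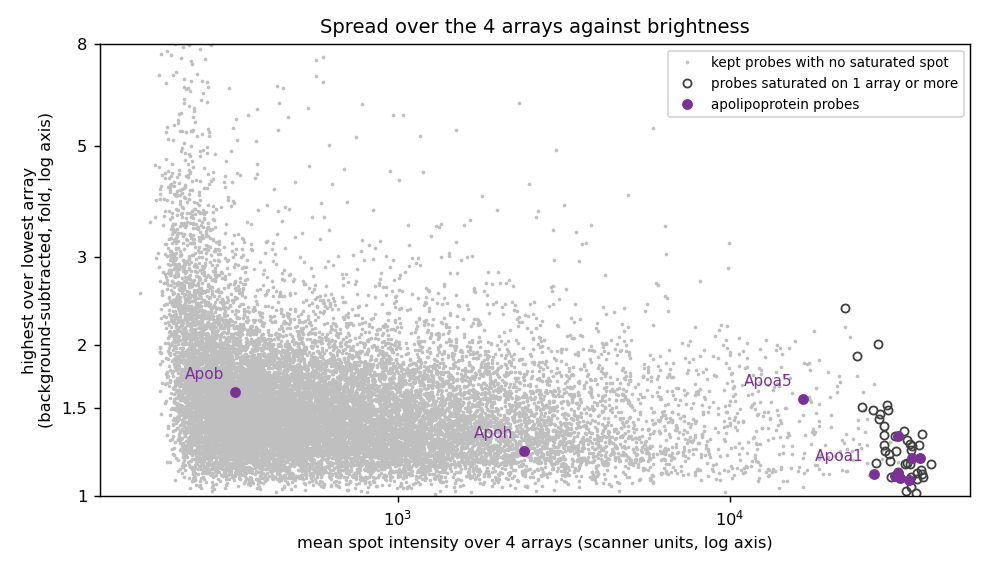
Ratio of the highest to the lowest of the 4 arrays (background-subtracted intensity, fold, log axis) against the mean spot intensity (scanner units, log axis), 1 point per kept probe; 51 probes lie above the plotted limit of 8-fold. Open circles are probes saturated on 1 array or more and purple points are apolipoprotein probes. The purple points at the bright end crowd between 1.07 and 1.32, while Apoa5 stands at 1.56 and Apob, at the dim end, at 1.62.

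Of the 4 measurable genes none passed the test, where limma called 0 (0%) of 18664 kept probes at an adjusted p under 0.05, and the groups of all 4 overlapped, where 37.4% of all genes had groups without overlap. Apoa1, the main protein of high density lipoprotein, was at 25596 and 28282 in thiamine rats 1 and 2 and at 28335 and 26253 in untreated rats 1 and 2. The lowest value came from a thiamine rat and the highest from an untreated rat, with the other two between them. On the normalized log2 scale the difference, thiamine less untreated, was -0.12 ± 0.18 (moderated SE, n = 2 per group; limma, adjusted p = 0.94), and the 95% interval ran from a fold of 0.695 to 1.22. Apoa1 was unsaturated but close to the ceiling. Its spot mean was 74.9% and 82.9% of the median saturated spot in the thiamine rats and 82.8% and 75.8% in the untreated rats. On the arrays of thiamine rat 2 and untreated rat 1, 1 saturated gene spot was dimmer than Apoa1.

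Apoa5, the promoter of triglyceride clearance, was at 17536 and 18561 in the thiamine rats and at 18126 and 11871 in the untreated rats. The thiamine rats and untreated rat 1 were close together and untreated rat 2 stood low. The difference was 0.13 ± 0.23 (log2, n = 2 per group; limma, adjusted p = 0.95), with an interval from a fold of 0.774 to 1.54. The untreated rats differed from each other by 0.65 on the log2 scale, against a median gap of 0.22 over all kept probes, and the thiamine rats by 0.12. Without untreated rat 2 the difference turned to -0.20, and without untreated rat 1 it was 0.45.

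Apob was read by 3 probes, all dim. The probe above background on all 4 arrays gave 169.5 and 256.2 in the thiamine rats and 158.5 and 239.6 in the untreated rats. On the normalized log2 scale it gave 7.79 and 8.19 in the thiamine rats and 7.86 and 8.33 in the untreated rats. The lower and the higher thiamine rat each exceeded their untreated counterpart before normalization and fell below it afterwards. Each group held a lower and a higher rat, and the difference was -0.10 ± 0.22 (log2, n = 2 per group; limma, adjusted p = 0.96), with an interval from a fold of 0.665 to 1.31. The gap within the groups, 0.40 and 0.47, was larger than this difference. The direction turned when 1 array was left out: the value was 0.096 with thiamine rat 1 left out and 0.14 with untreated rat 2 left out. The second probe, at 112.6 and 101.4 in the thiamine rats and 129.5 and 102.2 in the untreated rats, was near background in rat 2 of both groups. On the normalized log2 scale this second probe was at 7.39 and 7.25 in the thiamine rats and at 7.66 and 7.44 in the untreated rats, lower without overlap. The third was near background on all 4 arrays, with a mean of 6.58 in the thiamine rats and 6.15 in the untreated rats and overlapping groups. The 3 dim probes thus differed in direction, and neither the second nor the third entered the test. Levels are not set against those of other genes, since probes differ in how strongly they bind.

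Apoh, the phospholipid-binding glycoprotein, was at 2213 and 2455 in the thiamine rats and at 2492 and 2024 in the untreated rats. On these intensities the thiamine rats lay between the untreated ones. On the normalized log2 scale they were at 11.05 and 11.23, and the untreated rats at 11.41 and 11.10. Thiamine rat 1 was the lowest there. The difference was -0.12 ± 0.19 (log2, n = 2 per group; limma, adjusted p = 0.95), with an interval from a fold of 0.687 to 1.24. Leaving out untreated rat 1 turned it to 0.041, and leaving out untreated rat 2 gave -0.27. Its 4 spots were neither saturated nor near background.

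**Figure D3:**
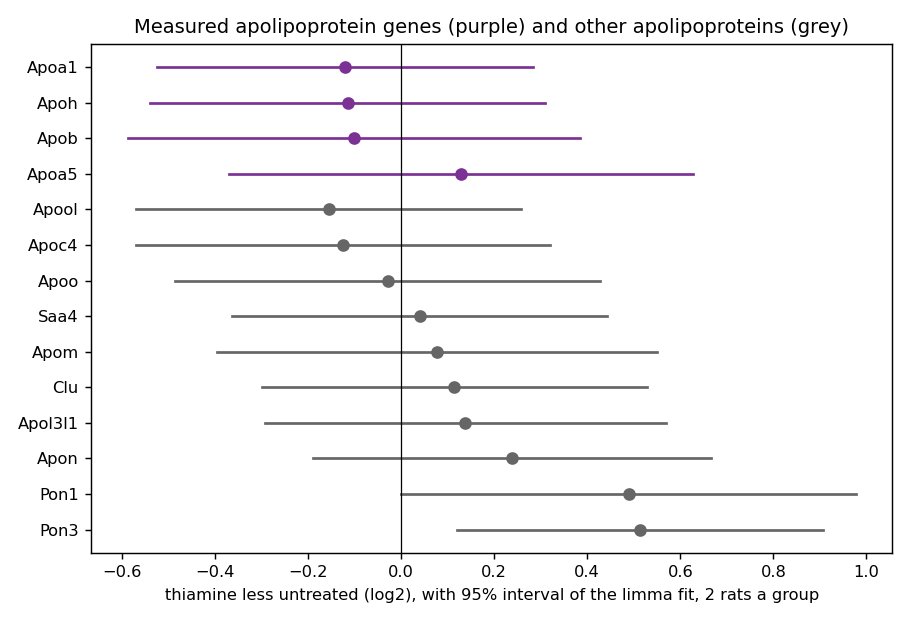
Difference of thiamine less untreated (log2) with its 95% interval from the limma fit, 2 rats per group, for the 4 measurable apolipoproteins (purple) and 10 genes listed by name as other apolipoproteins or their partners (grey). All 4 purple intervals span 0 and stay between -0.59 and 0.63, and the point of Pon3 stands at 0.51 with an interval from 0.12 to 0.91.

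Over the whole array the smallest adjusted p of limma was 0.22, and 1260 kept probes (6.75%) had an unadjusted p under 0.05. Of 8950 genes measured without a saturated spot, 619 (6.92%) had an unadjusted p under 0.05, against 0 of the 4 apolipoproteins. The groups of 3348 of 8942 genes did not overlap, against 0 of the 4. Of the 4, 1 was higher and 3 were lower, with a median difference of -0.11, and 50.6% of all genes were higher, with a median of 0.0033. The median over these 4 turned to 0.037 without thiamine rat 1 and was -0.0070 without untreated rat 1, -0.19 without untreated rat 2 and -0.21 without thiamine rat 2. A liver sample holds several cell types, and fewer cells of a type cannot be told apart from less RNA per cell in any of these values.

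In the rat genome (GRCr8 RefSeq gene order) 7 of the 10 genes lie in a pair of clusters. Apoa1, Apoc3, Apoa4 and Apoa5 follow each other on chromosome 8, and Apoc2, Apoc1 and Apoe lie together on chromosome 1, with Apoc4 between Apoc2 and Apoc1. Within the first cluster Apoc3 was saturated throughout, as was the probe shared by Apoa4 and Dsp, while Apoa1 and Apoa5 were readable. Within the second, Apoc4, a minor apolipoprotein of the same cluster, was readable, at 13.98 and 13.90 in the thiamine rats and 13.84 and 14.29 in the untreated rats on the normalized log2 scale. Its groups overlapped and its difference was -0.12 ± 0.20 (limma, adjusted p = 0.95).

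Start-site windows from RefSeq (GRCr8) were listed for 6 of the 10 genes. The 250 bases before the start are shown as context for the 3 of these genes whose probe was unsaturated on at least 1 array. Of these, Apoc2 had no measurable difference, and no window was listed for the measurable genes Apoa1 and Apob. They are printed 5′ to 3′ on the strand of the gene, and the array data do not bear on them directly. Capitals mark TATAAA (the TATA box core), AGGTCA (a nuclear receptor half-site), CAAAGTCC (the core of the motif bound by the liver factor HNF4) and TGTTTAC (a forkhead motif), on either strand.
Apoa5, chr8:55457621-55457870, plus strand: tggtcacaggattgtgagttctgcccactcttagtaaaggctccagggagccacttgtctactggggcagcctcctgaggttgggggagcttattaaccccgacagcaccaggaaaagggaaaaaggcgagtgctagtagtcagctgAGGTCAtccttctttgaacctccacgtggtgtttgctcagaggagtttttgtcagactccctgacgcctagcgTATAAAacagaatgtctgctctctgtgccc
Apoc2, chr1:88462366-88462615, minus strand: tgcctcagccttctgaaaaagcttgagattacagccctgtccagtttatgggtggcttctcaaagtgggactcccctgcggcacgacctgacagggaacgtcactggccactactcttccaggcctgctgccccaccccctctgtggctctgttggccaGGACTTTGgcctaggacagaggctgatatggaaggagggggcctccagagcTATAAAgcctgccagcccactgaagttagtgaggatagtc
Apoh, chr10:93841742-93841991, plus strand: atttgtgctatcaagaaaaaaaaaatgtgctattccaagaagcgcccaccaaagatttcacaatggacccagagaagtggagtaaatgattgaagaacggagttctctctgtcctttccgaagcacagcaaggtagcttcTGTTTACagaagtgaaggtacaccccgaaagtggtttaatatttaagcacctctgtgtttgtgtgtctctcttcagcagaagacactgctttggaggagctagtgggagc
The Apoa5 window is the first of 2 listed. It holds TATAAA starting 30 bases before the start and AGGTCA starting 103 bases before it. The Apoc2 window holds TATAAA starting 40 bases before the start and, 91 bases before it, GGACTTTG, the reverse complement of CAAAGTCC. The Apoh window holds TGTTTAC starting 110 bases before the start and no TATAAA. Over all 33469 listed windows, 12.9% held TATAAA, 14.1% AGGTCA, 1.14% CAAAGTCC and 3.21% TGTTTAC. These 4 motifs are shown out of 14 searched, some of which overlap each other, and a match is a description of the letters.

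Genes listed by name as other apolipoproteins, or as their particle-bound partners, were readable for 10 of 13. Whether the protein of each, such as Apoo, Apool or Apol3l1, is carried on lipoprotein particles was not checked. Of the 10 genes, 7 were higher and 3 lower in the thiamine rats, with a median difference of 0.095. Among the 3 lower were Apoo (-0.03 ± 0.21) and Apool (-0.16 ± 0.19). The groups did not overlap for 2 of the 10, both higher (18.5% of all genes were higher without overlap). These were the paraoxonases, antioxidant enzymes carried on high density lipoprotein. Pon3 was at 12.24 and 12.37 in the thiamine rats and at 11.78 and 11.80 in the untreated rats, a difference of 0.51 ± 0.18 (log2, limma, adjusted p = 0.56). It was the 1 gene of the 10 at an unadjusted p under 0.05 (limma), where 3.83% of all genes were higher at that level. Pon1, named after its values were seen, was at 14.10 and 14.05 in the thiamine rats and at 13.89 and 13.27 in the untreated rats, a difference of 0.49 ± 0.22 (adjusted p = 0.74). Both thiamine rats exceeded both untreated rats for each gene, but leaving out untreated rat 2 took Pon1 to 0.18 and leaving out untreated rat 1 took it to 0.80. Apom, a carrier of sphingosine phosphate on high density lipoprotein, was at 0.077 ± 0.21 (adjusted p = 0.97).

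Genes that load and export the particles were measured for 14 of 15 listed, 5 higher and 9 lower, with a median of -0.06. That median was -0.12 without thiamine rat 2 or untreated rat 1, -0.035 with thiamine rat 1 left out and -0.034 with untreated rat 2 left out. Leaving out untreated rat 1 left 3 of the 14 higher. At an unadjusted p under 0.05, 0 were higher and 2 lower, where 3.83% and 3.08% of all genes were higher and lower at that level. The cargo receptor Surf4, which carries secretory proteins out of the endoplasmic reticulum, was at 11.16 and 11.08 in the thiamine rats and at 11.71 and 11.73 in the untreated rats, without overlap. Its difference was -0.60 ± 0.18 (limma, adjusted p = 0.41), and leaving out any 1 array kept it between -0.64 and -0.56. P4hb, the subunit shared by protein disulfide isomerase and the lipid transfer complex, was at 11.97 and 11.76 in the thiamine rats and at 12.16 and 12.55 in the untreated rats. Its difference was -0.49 ± 0.20 (adjusted p = 0.66), or -0.29 without untreated rat 2, and its spot on the array of thiamine rat 1 was flagged as contaminated. Mttp, the subunit that transfers lipid onto Apob, was at -0.13 ± 0.24 (adjusted p = 0.96), with overlapping groups.

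Receptors and uptake factors were measured for 7 of 13 listed genes, 3 higher and 4 lower, with a median of -0.15 and none at an unadjusted p under 0.05. Leaving out thiamine rat 1 gave a median of -0.07, and leaving out untreated rat 2 gave -0.09. Only 1 of the 7 was higher without thiamine rat 1 or without untreated rat 1. The groups did not overlap for 3 of the 7, all lower, against 19.0% of all genes. These were the heparan sulfate proteoglycan Sdc1 (-0.33 ± 0.18), the lipolysis-stimulated receptor Lsr (-0.16 ± 0.18) and the remnant receptor Lrp1 (-0.15 ± 0.18), with adjusted p of 0.81, 0.92 and 0.93 (limma). The high density lipoprotein receptor Scarb1 was at -0.20 ± 0.20 (limma, adjusted p = 0.91). Among remodelling and efflux genes 10 of 14 could be measured; 6 were higher and 4 lower, and the median was 0.15, which turned to -0.05 without untreated rat 2 and to -0.0069 without thiamine rat 1. Pltp, which transfers phospholipid between particles, was at 0.78 ± 0.20 (adjusted p = 0.30). Bmp1, a protease that trims the Apoa1 precursor, was at 9.10 and 9.07 in the thiamine rats and at 9.61 and 9.96 in the untreated rats. Its groups did not overlap, all 3 of its kept probes were lower, and the difference was -0.70 ± 0.19 (adjusted p = 0.34). Lcat, which esterifies cholesterol with Apoa1 as cofactor, was at -0.02 ± 0.18 (adjusted p = 0.99).

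Transcription factors known to act on apolipoprotein genes were measured for 16 of 22 listed, 9 higher and 7 lower, with a median of 0.015. The median turned to -0.09 without untreated rat 1, with 5 higher, and to -0.01 without thiamine rat 1, and it was 0.12 without untreated rat 2 and 0.026 without thiamine rat 2. At an unadjusted p under 0.05, 1 of the 16 was higher and 2 were lower, against 3.83% and 3.08% of all genes. Nr2f2, an orphan receptor that competes for the same sites as HNF4, was at 8.90 and 8.79 in the thiamine rats and at 8.44 and 7.97 in the untreated rats, a difference of 0.64 ± 0.20 (limma, adjusted p = 0.48). It was 0.40 without untreated rat 2, and its spot was flagged as contaminated on the array of thiamine rat 1. The repressor Nr0b2 was at -0.82 ± 0.21 (adjusted p = 0.30). Nr1d1, a clock repressor known to act on Apoc3, was at 10.39 and 10.42 in the thiamine rats and at 10.96 and 10.73 in the untreated rats, a difference of -0.45 ± 0.18 (adjusted p = 0.67). Its groups did not overlap. Hnf4a, the main liver activator of these genes, was at -0.04 ± 0.18 and the fatty acid sensor Ppara at 0.013 ± 0.21, with overlapping groups (adjusted p = 0.98 and 0.99).

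**Figure D4:**
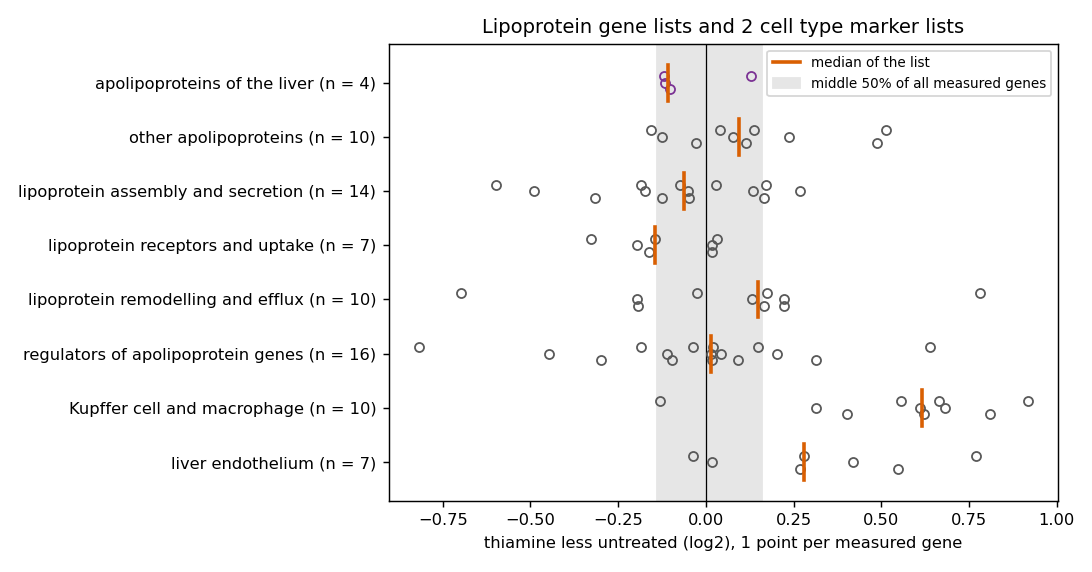
Difference of thiamine less untreated (log2), 1 point per measured gene, for the apolipoproteins (purple), the 5 other lipoprotein lists and 2 cell type marker lists (grey), with n genes beside each name. Orange bars are list medians and the grey band runs between the quartiles of all 8950 genes, from -0.14 to 0.16. The 4 apolipoproteins lie within the band, and the macrophage markers have a median of 0.62.

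Markers of the liver's cell types were measured beside these genes. All 9 named hepatocyte markers were above the filter, and 6 of them (Ahsg, Alb, Hpx, Serpina1, Tf and Ttr) were saturated on all 4 arrays. Of the 3 that could be measured 1 was higher and 2 were lower, with a median of -0.048: the urea cycle enzyme Cps1 was at 0.53 ± 0.18 (limma, unadjusted p = 0.014, adjusted p = 0.54; groups without overlap), the fibrinogen chain Fgb at -0.05 ± 0.18 (adjusted p = 0.98), and Apoh as given above. Of 10 measured markers of Kupffer cells and other macrophages, which also make Apoe, 9 were higher in the thiamine rats, 6 of them at an unadjusted p under 0.05, with a median of 0.62; over all genes 50.6% were higher and 3.83% were higher at that level. Their summed normalized intensity was 23821 to 32674 in the thiamine rats and 16522 to 23951 in the untreated rats, so these sums overlapped slightly. The sum weighs bright genes most, and the brightest, Clec4f, had overlapping groups (13.42 and 13.01 against 13.02 and 12.17, log2). Gene by gene, 6 of the 10 were higher without overlap and 1, Cd14, was lower without overlap, against 18.5% and 19.0% of all genes. The macrophage marker Cd14 was at -0.13 ± 0.18 (limma, adjusted p = 0.94). Of 7 markers of the liver endothelium 6 were higher, 2 at an unadjusted p under 0.05 (against the same 3.83% of all genes), with a median of 0.28 and a summed intensity of 5689 to 6357 in the thiamine rats and 4425 to 4621 in the untreated rats. The smaller marker lists had medians of -0.0034 (4 stellate cell genes), -0.0058 (2 bile duct genes), 0.24 (2 blood and lymphocyte genes) and -0.48 (2 intestinal genes). Because both probes of Apoe were saturated, no difference of Apoe could be set beside these markers, and their part in the values of the other genes was not tested.

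The deposited value table lists the saturated spots as ordinary numbers, with no flag. There Apoe reads 40296 and 33975 in the thiamine rats and 36731 and 37998 in the untreated rats on its first probe, and Apoc3 reads 32737 on 3 arrays and 30902 on that of thiamine rat 2. A fold change taken from that table for Apoa2, Apoc1, Apoc2, Apoc3 or Apoe would rest on readings at the ceiling. For the 4 measurable genes the table gave differences of -0.12 for Apoa1, 0.14 for Apoa5, -0.13 for Apob and -0.11 for Apoh.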

How the data were processed

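Each array was read from the authors' deposited CodeLink report, written by CodeLink Expression Analysis 5.0.0.31312 per the file headers. The report gives spot mean, local background and their difference as intensity on a linear scale, with a quality flag. Spots flagged S were taken as saturated and those flagged L as near background. The deposited value table also holds intensity. Its columns share their quartiles; its processing is not given in the labels or headers.

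The background of all 35129 features was corrected with normexp (offset 50), 1280 control features were left out, and log2 values of 33849 gene probes were quantile normalized. The filter kept the 18664 probes that were above background in both rats of a group. Contaminated and saturated spots were kept, and masked ones were missing. Between 31 and 40 gene spots were saturated per array, and 18176 to 20071 were above background.

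Symbols are those of the platform annotation, brought up to date by gene ID with the GRCr8 RefSeq table (16742 probes with 1 symbol), or, for 367 probes, those of the accession in the reports. No name was used for 165 probes with several symbols, 11 with sources in conflict and 16564 others. A gene was represented by its brightest kept probe with no saturated spot, or by the brightest where all had one.

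Groups were taken from the labels and compared with limma 3.58.1 in R 4.3.3 (two-sided; p-values adjusted by Benjamini-Hochberg across the kept probes; threshold 0.05), with 10.8 moderated degrees of freedom. The moderated SE borrows from the spread of the other probes. The fit was tested on simulated data. All 10 members are named whatever their values, and from each other list up to 3 genes at an unadjusted p under 0.05. Apoc4, Apom, Apoo, Apool, Apol3l1, Pon1, Mttp, Sdc1, Lsr, Lrp1, Scarb1, Lcat, Hnf4a, Ppara, Cd14, Clec4f, Cps1 and Fgb fall outside this rule and were chosen after their values were seen. Some single genes are not reported here. Members and lists were chosen with earlier results of these data known. The replicate numbers did not pair the rats (correlation of deviations from the group means -0.0737). Alternatives covered background, offset, scaling, filter, flagged and saturated spots, the deposited table, the replicate block, the probe of a gene and leaving out each array.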

Additional observations from a re-analysis of the deposited data

How the results depend on the processing

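Over 15 alternative settings, a direction among Apoa1, Apoa5, Apob and Apoh changed only when 1 array was left out. With all 4 arrays kept, none of the 4 was called, with adjusted p (limma) between 0.89 and 0.999. The alternatives of filter, flagged and saturated spots, replicate block and probe of a gene could not move these differences. Each of the 4 genes has 1 kept probe, with no spot flagged as contaminated, saturated or near background. Leaving out 1 array at a time gave -0.20 to 0.45 for Apoa5, -0.34 to 0.14 for Apob and -0.27 to 0.041 for Apoh, while Apoa1 ran from -0.21 to -0.03. The number of the 4 that were higher was 1 to 2. For the other lists, leaving out 1 array gave medians of 0.080 to 0.13 (other apolipoproteins), -0.12 to -0.034 (assembly), -0.156 to -0.0748 (receptors), -0.0536 to 0.228 (remodelling) and -0.0887 to 0.12 (regulators), and numbers higher of 3 to 7 (assembly), 1 to 3 (receptors) and 5 to 9 (regulators). The median of the other apolipoproteins was 0.077 with the filter asking for signal on every array and 0.14 with the deposited table. Called probes on the whole array numbered 1 to 67 without 1 array, with the single rat of its group taken to vary as the other 2 do, and those at an unadjusted p under 0.05 numbered 696 to 2459. The fit with the replicate block, whose numbers are not stated to pair the rats, called 126 probes, none of them a measurable apolipoprotein. Depth here means the scanner's range: saturation leaves 6 of the 10 genes without a measured difference.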
